A study of Mus musculus with 3 samples.

Results

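Angiogenic tip-like endothelial cells of a grafted mouse brainstem glioma are described here, 84 cells of 20570 kept from the tumour libraries and of 23699 kept in all. They were chosen by their own counts, in the tumour libraries, of unique molecular identifiers (UMIs, each tagging 1 captured transcript). A barcode needed at least 500 UMIs, at least 300 genes and at most 15% mitochondrial UMIs. It then needed at least 10 UMIs of Cldn5, Pecam1, Flt1 and Cdh5 together per 10000, under 5 of 5 mural cell genes (Kcnj8, Abcc9, Higd1b, Pdgfrb and Notch3), under 30 of C1qa, C1qb and C1qc, and at least 3 UMIs of Angpt2, Apln and Esm1 together. The 144 tumour cells that passed all but the last condition are called the other tumour endothelial cells, and all 104 normal cells that passed the endothelial, mural and C1q limits are called the normal endothelial cells.

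The tumour libraries came from untreated B6(Cg)-Tyrc-2J/J mice, 6 weeks old at surgery, 3 weeks after intracranial injection of 100000 cells of DIPG4423, a murine diffuse midline glioma line. The normal library came from brainstem of the same strain without a tumour and is also labelled untreated. There are 2 tumour libraries and 1 normal library, all made with the 10x Genomics 3' kit after saline perfusion, mechanical grinding, myelin depletion and red cell lysis. The graft is a single cell line, and nothing states how the 2 tumour mice relate, so p-values speak only of how these libraries vary.

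In sprouting angiogenesis a leading tip cell moves up a gradient of vascular endothelial growth factor, remodels the vessel's basement membrane and is followed by stalk cells that form the tube. Notch signals between neighbouring cells help decide which becomes which. Angpt2 is a ligand that can act against the stabilising receptor Tek (Tie2), Apln is the peptide ligand of Aplnr, and Esm1 is a secreted proteoglycan enriched in tip cells. In healthy brain, endothelial cells instead form the blood-brain barrier, which is kept by Wnt signalling and by many transporters.

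The share of tip-like cells among gated endothelial cells was 27.9% in tumour 1 (17 of 61 cells, exact Clopper-Pearson 95% interval 17.1% to 40.8%) and 40.1% in tumour 2 (67 of 167 cells, 32.6% to 48.0%), against 0.962% in normal brainstem (1 of 104 cells, 0.0243% to 5.24%). Among gated cells of at least 5000 UMIs the shares were 73.3% in tumour 1 (11 of 15), 65.3% in tumour 2 (47 of 72) and 0 of 34 in normal brainstem, which allows a share of up to 8.82% as a floor of 3 cells and up to 10.3% by the exact interval. With 2 tumour libraries and 1 normal library no exact test of these shares can pass a threshold of 0.05, and the intervals cover counting error only. Tip-like cells made up 0.156% of all kept cells of tumour 1 and 0.695% of tumour 2, against 0.0320% of normal brainstem. No tip-like cell was called a doublet by Scrublet, and no barcode of a tip-like cell was shared between libraries, although 31, 11 and 8 kept barcodes were shared between pairs of libraries. Some members not called doublets still held transcripts of both graft and host patterns, as given below.

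Depth differed between the classes and moves with every level below. The median tip-like cell had 23599 UMIs in tumour 1 and 26515 in tumour 2. The median other endothelial cell had 812.5 UMIs in tumour 1 and 1341.5 in tumour 2, and the median normal endothelial cell other than the lone one past the last condition had 3662. A condition of at least 3 UMIs is met more readily by deeper cells, and 28 of 44 other endothelial cells in tumour 1 and 57 of 100 in tumour 2 carried under 5 UMIs of the 4 endothelial genes. Summed over cells, the tip-like class held 413007 UMIs in tumour 1 and 2257772 in tumour 2, the other class 107395 and 543928 in the same libraries, and the normal class 474611. The cell with the most UMIs supplied 16.8% of the tip-like sum of tumour 1 and 8.11% of that of tumour 2. In the other class the largest cell supplied 26.6% of the sum in tumour 1 and 8.43% in tumour 2.

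**Figure D1:**
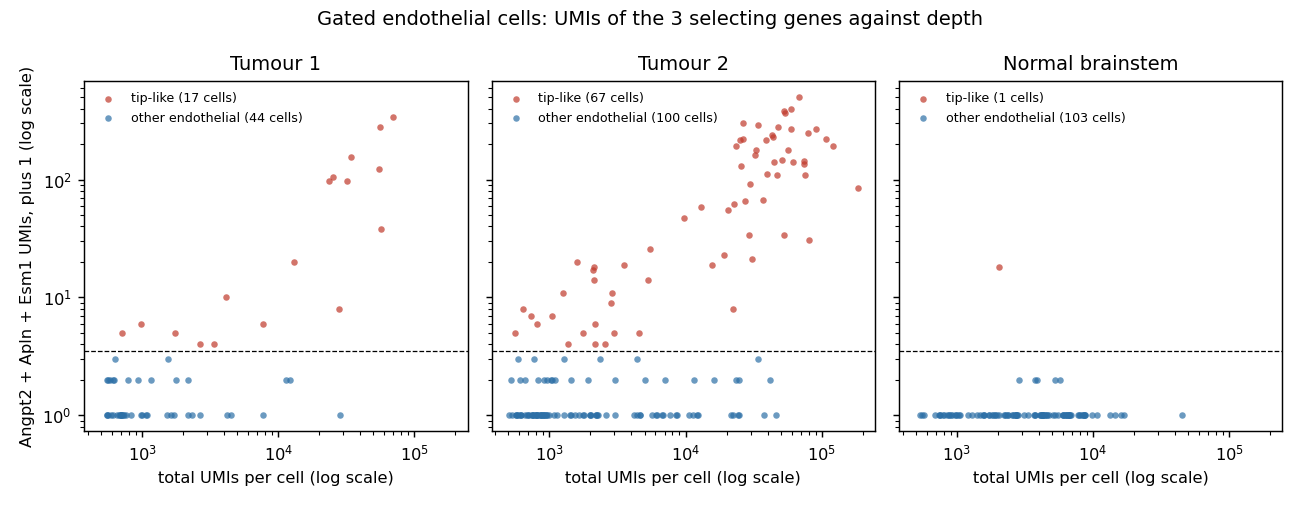
Each point is a gated endothelial cell, with its total UMIs on a log x axis and its UMIs of Angpt2, Apln and Esm1 plus 1 on a log y axis, in panels for tumour 1, tumour 2 and normal brainstem; red points are cells selected as tip-like, blue points are the rest, and the dashed line is the limit of 3 UMIs that selected them. In tumour 2, 58 of the 67 red cells carry 6 or more UMIs, while 9 lie just above the line at low depth.

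Most members lay far above the limit. In tumour 1, 11 of 17 cells carried 6 or more UMIs of the 3 selecting genes and 6 carried 3 to 5; in tumour 2 the numbers were 58 and 9. Just inside the limit, 2 members of tumour 1 and 3 of tumour 2 carried exactly 3 UMIs of these genes, at median depths of 3000.5 and 2144 UMIs in all. Just outside it, 2 cells of tumour 1 and 6 of tumour 2 carried exactly 2, at median depths of 1091 and 1805.5 UMIs. The lone normal cell past the condition had 2045 UMIs in all and 6 or more of the selecting genes.

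The selecting genes were carried by different numbers of members, which is given as a description because they chose the cells. In tumour 1, 15 of 17 members had an Angpt2 UMI, 16 had Apln and 13 had Esm1, and 10 had all 3. In tumour 2, 63 of 67 had Angpt2, 66 had Apln and 43 had Esm1, and the same number, 43, had all 3. Members varied widely: the median cell of tumour 1 held 16 UMIs of Angpt2, 6 of Apln and 2 of Esm1 with maxima of 181, 178 and 25, and in tumour 2 the medians were 13, 36 and 2 and the maxima 196, 301 and 94. The genes lie apart in GRCm38, Angpt2 on chromosome 8 from 18690263 to 18741562 (minus strand), Apln on chromosome X from 48025146 to 48034853 (minus) and Esm1 on chromosome 13 from 113209659 to 113218098 (plus).

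As summed levels, Angpt2 stood at 1453 CPM (UMIs per 1000000) in the tip-like cells of tumour 1 and 1129 CPM in those of tumour 2, against 18.6 and 23.9 CPM in the other endothelial cells. Apln stood at 1458 and 1822 CPM in tip-like cells, against 121 and 27.6 CPM in the others. Esm1 stood at 206 and 407 CPM in tip-like cells, against 9.31 and 5.52 CPM in the others and 0 in normal endothelial cells. The selecting genes also appear at low level outside the endothelium: the share of cells with 3 or more of their UMIs was 0.273% and 0.440% among C1q-gated cells of tumours 1 and 2, and 6.82% and 10.2% among graft cells gated on Pdgfra, Olig1 and Lhfpl3, whose median depths were 14279 and 20259.5 UMIs.

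The 2 further genes proposed as markers did not behave alike. Vwf (chromosome 6, 125546774 to 125686679, plus strand), the clotting factor stored by endothelial cells, stood at 932 and 707 CPM in the tip-like cells of tumours 1 and 2, against 168 and 95.6 CPM in the others and 21.1 CPM in normal endothelial cells. It was seen in 12 of 17 and 55 of 67 members. Mmp10 (chromosome 9, 7502352 to 7510240, plus strand), a secreted metalloproteinase, stood at 7.26 and 34.1 CPM in tip-like cells, against 9.31 and 31.3 CPM in the others. It was seen in 1 of 17 and 11 of 67 members, and 51 of its 77 UMIs in tumour 2 lay in 1 cell. The mural-gated cells of the same libraries held 680 and 781 CPM of Mmp10, so the data go against it as a marker of the tip-like cells.

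Sex-linked genes separated graft from host cells: graft cells were rich in Xist, the long RNA of the inactive X chromosome, and poor in Y-linked transcripts. As sums, tip-like cells carried the host pattern. Summed Y-linked transcripts stood at 249 and 204 CPM in the tip-like cells of tumours 1 and 2, against 4.14 and 5.50 CPM in the graft-gated cells and 172 and 164 CPM in C1q-gated cells of the host. Xist stood at 67.8 and 88.1 CPM in tip-like cells, against 1070 and 1062 CPM in graft-gated cells and 97.1 and 59.0 CPM in C1q-gated cells. In tumour 1, 27 of the 28 Xist UMIs lay in the 1 tip-like cell with at least 5 Pdgfra UMIs; in tumour 2, 191 of 199 lay in the 5 such cells. Among them, 1 cell of tumour 1 and 4 of tumour 2 held at least 5 Xist UMIs as well. Each of those also held Ddx3y, a Y-linked gene, so these barcodes carried transcripts of both graft and host patterns. List counts without the 6 cells of at least 5 Pdgfra UMIs, and without other gated cells past the same limit, are given beside the markers of other cells.

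Beyond the selecting genes, the tip-like cells carried much more basement membrane and sprouting transcripts than the other tumour endothelial cells and far less of the barrier programme. The 4 sums (tip-like and other, in each tumour library) were compared across all genes with edgeR's quasi-likelihood test and the library as a block, and a gene is called at a Benjamini-Hochberg adjusted p under 0.05. This leaves a single residual degree of freedom, so small p-values rest on a spread pooled over genes. Of 6771 genes tested, 720 (10.6%) were called higher and 623 (9.2%) lower in tip-like cells, with a median log2 change of 7.9e-05 over all of them. With total UMIs in place of trimmed-mean scaling the numbers were 492 higher and 768 lower, a fall in the share of calls that were higher to 39.0% under total UMIs, against 53.6% here, and the median of all genes moved to -0.19. DESeq2 called 216 higher and 228 lower, all of them also called by edgeR in the same direction. Fewer cells of a type and less RNA per cell cannot be told apart in such summed levels.

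**Figure D2:**
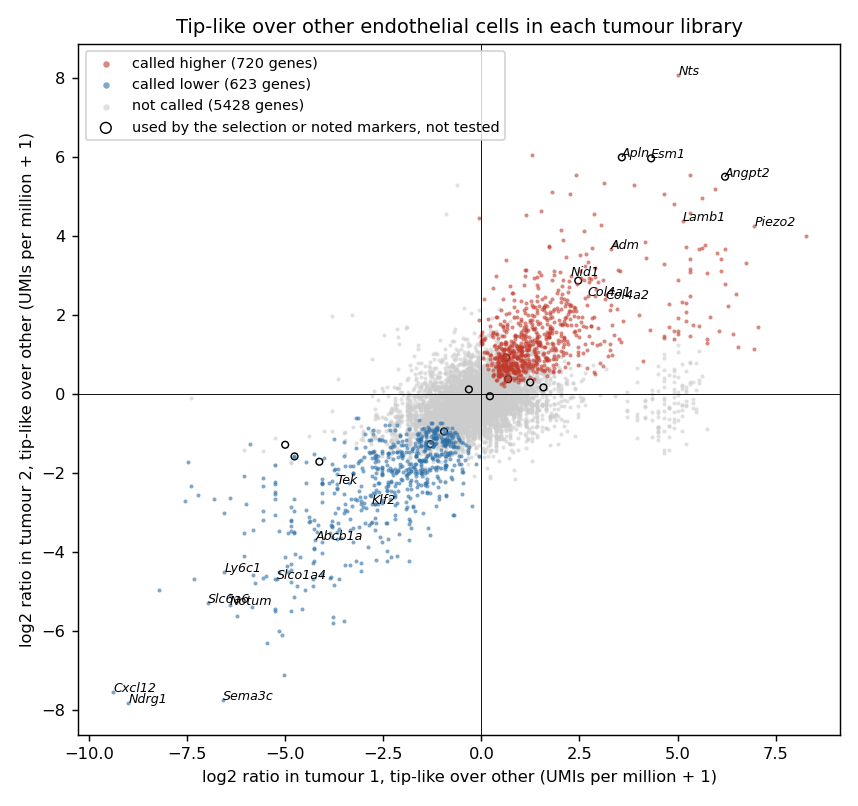
Each point is a gene, with its log2 ratio of tip-like over other endothelial cells (CPM plus 1) in tumour 1 on the x axis and in tumour 2 on the y axis; red genes are called higher, blue genes lower, grey genes neither, and open circles are the selecting, gating and noted marker genes, which were not tested. Cxcl12, Ndrg1 and Sema3c lie at the lower left and Piezo2 and Nts at the upper right, on the same side in both libraries, as the rule that named them required.

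The matrix of the sprouting vessel had the highest median change of the lists other than markers of other cells. Of 22 tested basement membrane and matrix genes, 16 rose and 1 fell, with a median log2 change of 1.88. The exception was Lamb2, a laminin beta chain, which fell by 2.08 (SE 0.32). Lamb1 (chromosome 12, 31265234 to 31329644, plus strand), another laminin beta chain, stood at 688 and 557 CPM in the tip-like cells of tumours 1 and 2, against 18.6 and 25.7 CPM in the others and 6.32 CPM in normal endothelial cells. The groups did not overlap, and its log2 change was 4.77 ± 0.30 (SE; edgeR, adjusted p = 2.2e-06). Nid2 and Nid1, nidogens that link laminin to collagen IV, changed by 4.59 and 2.95, Lamc1 by 3.02, Lama4 by 2.80 and the heparan sulfate proteoglycan Hspg2 by 2.77. Pxdn, an enzyme that crosslinks collagen IV, stood at 162 and 126 CPM in tip-like cells, against 18.6 and 5.52 CPM in the others, a log2 change of 4.24 (SE 0.45). Serpinh1, the collagen chaperone, changed by 2.38 and the lysyl oxidase Loxl2 by 2.33.

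Collagen IV, the network-forming collagen of basement membranes, is built from chains encoded head to head by Col4a1 and Col4a2 on chromosome 8. Col4a1 stood at 4714 and 2948 CPM in the tip-like cells of tumours 1 and 2, against 717 and 529 CPM in the others and 491 CPM in normal endothelial cells. Col4a2 stood at 3167 and 1908 CPM in tip-like cells, against 354 and 357 CPM in the others and 415 CPM in normal endothelial cells. Neither gene's groups overlapped. The log2 changes were 2.78 ± 0.19 for Col4a1 and 2.91 ± 0.22 for Col4a2 (SE; edgeR, adjusted p = 4.3e-06 and 7.5e-06). In GRCm38, Col4a1 spans 11198423 to 11312826 on the minus strand and Col4a2 spans 11312805 to 11449287 on the plus strand, so their annotated 5' ends overlap by 22 bases. The promoter windows of RefSeq (GRCm38.p6) for these 2 genes, 300 bases each around the annotated start, are shown because the pair moved together; each is written 5' to 3' on its gene's strand, with the 78 bases that lie in both windows in capitals.
Col4a1, chr8:11312777-11313076, minus strand: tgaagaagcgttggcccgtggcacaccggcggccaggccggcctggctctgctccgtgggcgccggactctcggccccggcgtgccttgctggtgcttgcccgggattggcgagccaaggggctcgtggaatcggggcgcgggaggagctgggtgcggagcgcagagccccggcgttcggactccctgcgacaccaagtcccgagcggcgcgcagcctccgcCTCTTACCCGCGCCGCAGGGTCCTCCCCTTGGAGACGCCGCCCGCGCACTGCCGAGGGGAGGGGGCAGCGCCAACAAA
Col4a2, chr8:11312555-11312854, plus strand: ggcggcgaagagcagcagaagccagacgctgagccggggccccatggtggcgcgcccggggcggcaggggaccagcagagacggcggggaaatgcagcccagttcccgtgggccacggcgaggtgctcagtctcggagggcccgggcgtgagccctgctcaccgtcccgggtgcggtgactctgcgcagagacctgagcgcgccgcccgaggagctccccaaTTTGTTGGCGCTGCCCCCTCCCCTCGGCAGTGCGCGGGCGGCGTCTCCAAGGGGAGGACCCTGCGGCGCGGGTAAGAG
The capitals of the Col4a1 window are the reverse complement of those of the Col4a2 window (chromosome 8, 11312777 to 11312854). The 2 windows hold 74.0% and 73.7% G and C, against a median of 52.7% over all 32851 promoter windows of the table. Nothing measured here bears on which factors bind there.

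The listed sprouting tip cell genes rose in majority. Of 27 tested, 19 rose and 0 fell, with a median log2 change of 1.58. The list was chosen with results of these libraries known, so its direction is not independent evidence. It also shares members with other lists, Nid1 and Nid2 with the matrix genes and Pgf, Nrp1, Kdr and Flt4 with the VEGF genes. The growth factor Pgf, a ligand of Flt1, stood at 351 and 120 CPM in the tip-like cells of tumours 1 and 2, against 18.6 and 7.35 CPM in the others; its log2 change was 4.27 ± 0.38 (SE; edgeR, adjusted p = 1.6e-05). Adm, the vasoactive peptide adrenomedullin, stood at 470 and 603 CPM in tip-like cells, against 46.6 and 46.0 CPM in the others, a log2 change of 3.81. Mest, an imprinted gene, changed by 5.36 and Trp53i11 by 3.93, though Trp53i11 ranged from 719 to 1567 CPM among tip-like sums and from 29.4 to 214 CPM among the others. The chemokine receptor Cxcr4 and the Notch ligand Dll4, both known tip cell genes, changed by 2.38 and 1.56. Unc5b, Rgcc, Robo4, Ramp3, Sox7, Sox17, Sox18 and Ednrb were not called.

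Receptors of the angiogenic ligands were split. Of 8 tested genes of the VEGF family and its receptors, 6 rose and 0 fell (median 1.31): Pgf, the co-receptors Nrp1 (2.00) and Nrp2 (1.43), Plxnd1 (2.57), Kdr (1.19), the main VEGF receptor of endothelium, and Flt4 (1.19). Flt4 was not called with total UMIs as the scale. Vegfa itself stood at 14.5 and 68.2 CPM in the tip-like cells of tumours 1 and 2, against 65.2 and 27.6 CPM in the others, and was not called (0.72, SE 0.58). It stood at 295 and 452 CPM in the graft-gated cells.

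Of 13 tested Notch and stalk cell genes, 5 rose and 3 fell, with a median log2 change of 0.07 that turned to -0.12 with total UMIs as the scale. Aplnr, the receptor of apelin, changed by 3.06 (SE 0.52) from few counts, 11 and 177 UMIs in the tip-like sums against 1 and 5 in the others. Nrarp, a Notch target and feedback inhibitor, changed by 2.10. Tek, the receptor on which Angpt2 acts, stood at 12.1 and 34.5 CPM in the tip-like cells of tumours 1 and 2, against 168 and 171 CPM in the others and 520 CPM in normal endothelial cells. The groups did not overlap, and it fell by 2.41 on the log2 scale (SE 0.33; edgeR, adjusted p = 0.00041). Notch1 (-0.90) and Acvrl1 (-0.78), a receptor for BMP9, fell.

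**Figure D3:**
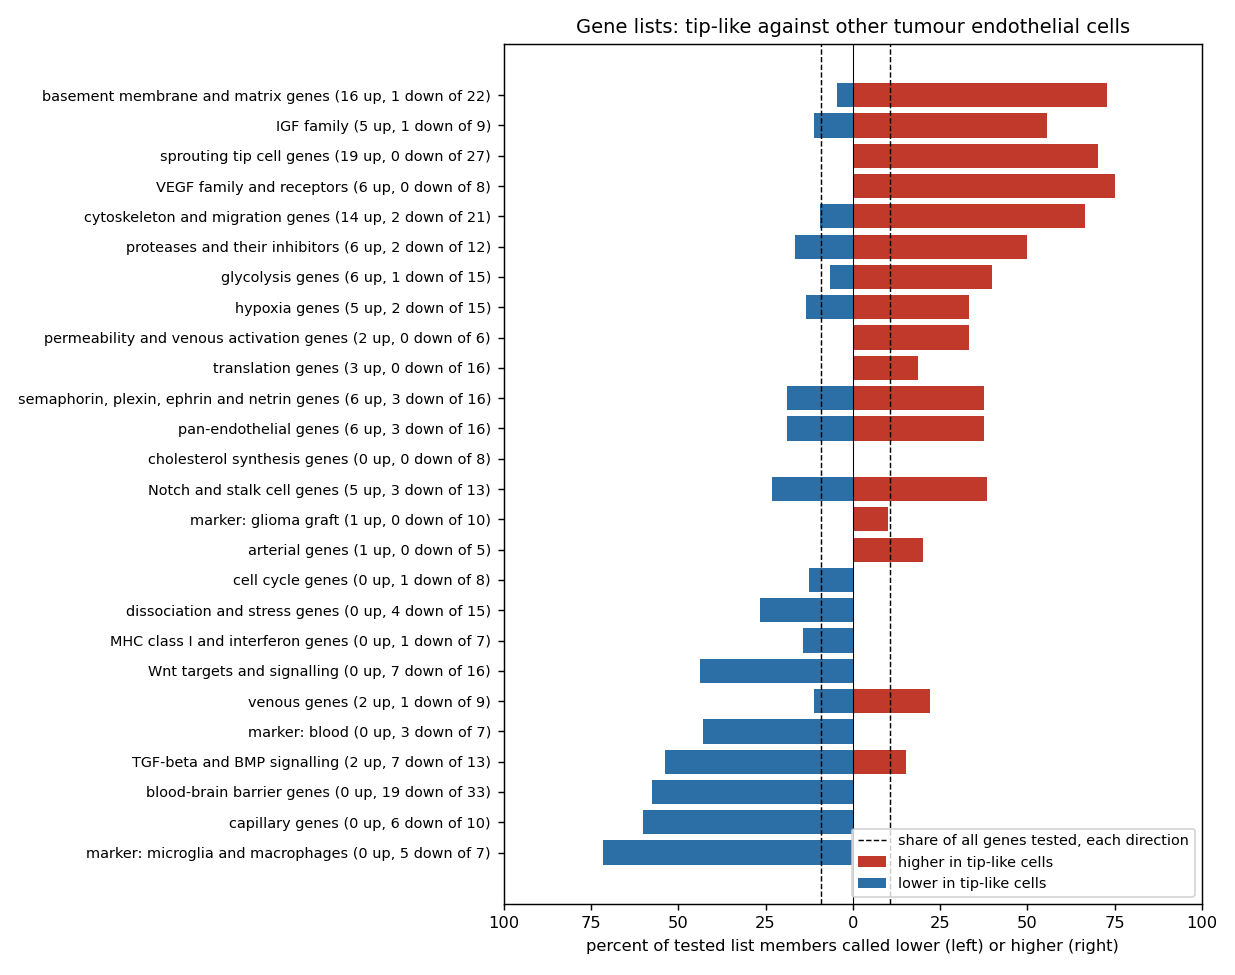
For each gene list with at least 5 tested members, the red bar gives the percent of tested members called higher in tip-like than in other tumour endothelial cells, and the blue bar the percent called lower; the dashed lines mark the shares of all genes tested, 10.6% and 9.2%. Lists are ordered from top to bottom by median log2 change; basement membrane genes are at the top with 16 of 22 higher, and blood-brain barrier and capillary genes are near the bottom with 19 of 33 and 6 of 10 lower.

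Genes of cell shape and movement rose with the matrix genes. Of 21 tested cytoskeleton and migration genes, 14 rose and 2 fell (median 1.12). Fscn1, which bundles actin in filopodia, stood at 378 and 357 CPM in the tip-like cells of tumours 1 and 2, against 37.2 and 57.0 CPM in the others, a log2 change of 2.99 (SE 0.27). The tubulin Tubb6 changed by 3.30, the intermediate filament gene Vim by 2.35, the thymosin Tmsb10 by 2.11 and Itga5, a fibronectin receptor chain, by 2.06. The 2 that fell were Cd44 (-3.61), with 0 and 8 UMIs in the tip-like sums against 12 and 15 in the others, and Itga6, a laminin receptor chain (-0.67, SE 0.22). Piezo2, a stretch-gated ion channel named for the size of its change, stood at 123 CPM in the tip-like cells of both tumours, against 0 and 5.52 CPM in the others.

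Proteases were mixed. Of 12 tested, 6 rose and 2 fell (median 0.91). The membrane-bound Mmp14, which cleaves matrix at the cell surface, changed by 2.94 and Adamts1 by 2.47. Timp3, a matrix-bound protease inhibitor, stood at 65.4 and 71.3 CPM in the tip-like cells of tumours 1 and 2, against 577 and 739 CPM in the others, and fell by 3.10 (SE 0.22; edgeR, adjusted p = 5.1e-06).

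The barrier programme was the largest group that fell. Of 33 tested blood-brain barrier genes, 19 fell and 0 rose, with a median log2 change of -1.10. Slco1a4 (chromosome 6, 141805440 to 141856199, minus strand), an organic anion transporter of brain capillaries, stood at 65.4 and 116 CPM in the tip-like cells of tumours 1 and 2, against 2458 and 3010 CPM in the others and 3963 CPM in normal endothelial cells. The groups did not overlap, and it fell by 4.69 (SE 0.23; edgeR, adjusted p = 3.6e-07). Members were uneven: 14 of 17 in tumour 1 and 34 of 67 in tumour 2 had no Slco1a4 UMI, while 2 and 9 had at least 10. Ly6c1, a surface protein of brain endothelium, stood at 16.9 and 104 CPM in tip-like cells, against 1685 and 2388 CPM in the others, and fell by 4.82. The drug efflux pump Abcb1a (-3.70), the taurine transporter Slc6a6 (-5.49), the transferrin receptor Tfrc (-3.36), the tight junction gene Ocln (-2.26) and the glucose transporter Slc2a1 (-1.11) fell. Mfsd2a, the lipid transporter that restrains transcytosis, stood at 109 and 175 CPM in tip-like cells, against 298 and 276 CPM in the others, and was not called (-0.73, SE 0.25). Plvap, a component of fenestrated and leaky vessels, did not pass the filter on low counts.

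Single cells showed the same division. In gated cells of at least 5000 UMIs, the UMIs of 4 matrix genes (Col4a1, Col4a2, Lamb1 and Nid1) exceeded those of 4 barrier genes (Slco1a4, Ly6c1, Abcb1a and Slc6a6) in 11 of 11 tip-like cells of tumour 1 and in 46 of 47 of tumour 2. They did so in 1 of 4 other endothelial cells of tumour 1, in 2 of 25 of tumour 2 and in 0 of 34 normal cells. These 8 genes were chosen after their values were seen, so the counts are a description without a test. The median tip-like cell of such depth held 82.6 matrix UMIs per 10000 in tumour 1 and 59.1 in tumour 2, against 8.01 and 4.68 in the other cells and 9.15 in normal cells. For the barrier genes the medians were 1.07 and 2.27 in tip-like cells, against 80.6 and 104 in the others and 113 in normal cells.

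**Figure D4:**
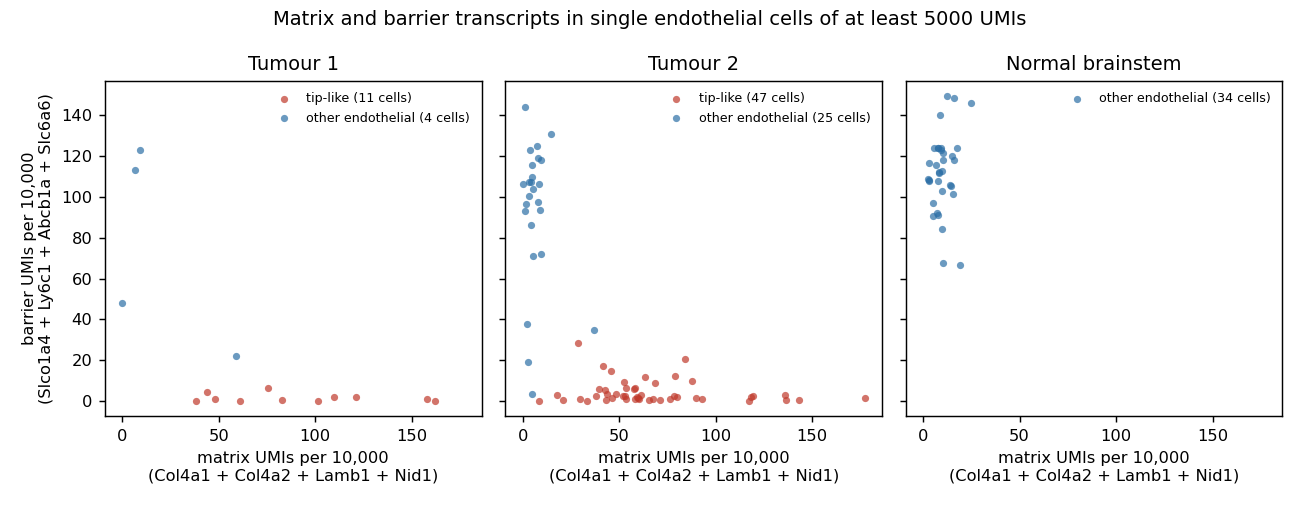
Each point is a gated endothelial cell of at least 5000 UMIs, with its UMIs of 4 matrix genes per 10000 on the x axis and of 4 barrier genes per 10000 on the y axis, in panels for tumour 1, tumour 2 and normal brainstem. The red tip-like cells run along the x axis, with at most 28.6 barrier UMIs per 10000, and the 34 blue normal cells lie high on the y axis, between 66.5 and 149.

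Signalling genes that maintain brain vessels fell as well. Of 16 tested Wnt genes, 7 fell and 0 rose (median -0.60). With stricter limits on mural and C1q UMIs 2 of 13 were lower and the median was 0.19, where 283 of all 5337 genes tested were lower. With cells thinned to 2000 UMIs before selection, at a limit of 2 UMIs of the selecting genes in place of 3, none of 3 was called (median 0.34). Notum, a secreted Wnt deacylase that Wnt signalling induces, had 0 and 1 UMIs in the tip-like sums of tumours 1 and 2, against 9 and 31 in the others. The Wnt targets Axin2 (-3.31) and Nkd1 (-2.49) fell, as did Reck (-2.47), a co-receptor for Wnt7 ligands. Of 13 tested TGF-beta and BMP genes, 7 fell and 2 rose (median -0.95): the BMP targets Id1 (-2.72), Id2 (-2.39), Id3 (-1.43) and Smad7 (-2.19) fell, and Bambi, a decoy receptor, rose by 2.52. Of 15 tested dissociation and stress genes, 4 fell and 0 rose (median -0.35). That list turned to 4 higher and 3 lower of 14 (median 0.13) in cells of at least 5000 UMIs, and to 4 higher and 3 lower of 15 (median 0.07) with an endothelial limit of 20. Klf2 (-2.60) and Klf4 (-3.03), factors induced by blood flow, fell. Fos, also in that list, fell by 1.45 but was higher by 3.42 when every class was limited to cells of at least 5000 UMIs.

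By vessel segment, capillary genes fell and arterial and venous genes gave few calls. Of 10 tested capillary genes, 6 fell and 0 rose (median -1.26); of 5 arterial genes, 1 rose (Edn1, the vasoconstrictor endothelin, 2.12); of 9 venous genes, 2 rose and 1 fell. Cxcl12 (chromosome 6, 117168535 to 117181367, plus strand), the ligand of Cxcr4, had 0 and 6 UMIs in the tip-like sums of tumours 1 and 2, against 72 and 368 in the others, or 0 and 2.66 CPM in tip-like cells against 670 and 677 CPM in the others. It stood at 2503 CPM in normal endothelial cells. Its log2 change was -7.98 ± 0.38 (SE; edgeR, adjusted p = 3.6e-07), opposite in direction to that of its receptor Cxcr4 above.

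Among the genes with the most extreme changes at 50 CPM or more, Nts, which encodes the peptide neurotensin (chromosome 10, 102481756 to 102490486, minus strand), had 13 and 604 UMIs in the tip-like sums of tumours 1 and 2 and none in the others or in normal endothelial cells. Against a floor of 3 UMIs over each of those groups, it was at least 50.2-fold higher than in the others and at least 36.5-fold higher than in normal cells. Its level differed between the tumours, 31.5 CPM in tumour 1 and 268 CPM in tumour 2. Its bounds above pool both tumour libraries, so they rest mostly on tumour 2, and tumour 1 alone does not reach them. Its mean over the compared sums passed the limit of 50 CPM through the tip-like sums alone. Gpihbp1 (chromosome 15, 75596628 to 75599481, plus strand), which carries lipoprotein lipase to the capillary lumen, stood at 203 and 131 CPM in tip-like cells, against 37.2 and 1.84 CPM in the others. Gpx3, a secreted peroxidase, changed by 3.82, the chemokine scavenger receptor Ackr2 by 4.08 and the carrier gene Slc16a6 by 3.93.

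Ndrg1 (chromosome 15, 66929318 to 66969640, minus strand), a stress-responsive gene often induced by hypoxia, had 0 and 4 UMIs in the tip-like sums of tumours 1 and 2, against 55 and 341 in the others. Its levels were 0 and 1.77 CPM in tip-like cells, against 512 and 627 CPM in the others and 630 CPM in normal endothelial cells, a log2 change of -8.36 (SE 0.39). The guidance ligand Sema3c (chromosome 5, 17574281 to 17730268, plus strand) stood at 4.84 and 2.66 CPM in tip-like cells, against 559 and 774 CPM in the others, and fell by 7.65. The enzyme genes Fmo2 (-7.74), Xdh (-6.40) and Degs2 (-6.16), the membrane progestin receptor Paqr5 (-5.91), the chloride channel family member Clic5 (-5.28), the death receptor Fas (-5.21) and the matrix protein Tinagl1 (-5.19) also fell. Chil3, a chitinase-like protein of myeloid cells, fell by 6.13, together with the myeloid markers described below.

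**Figure D5:**
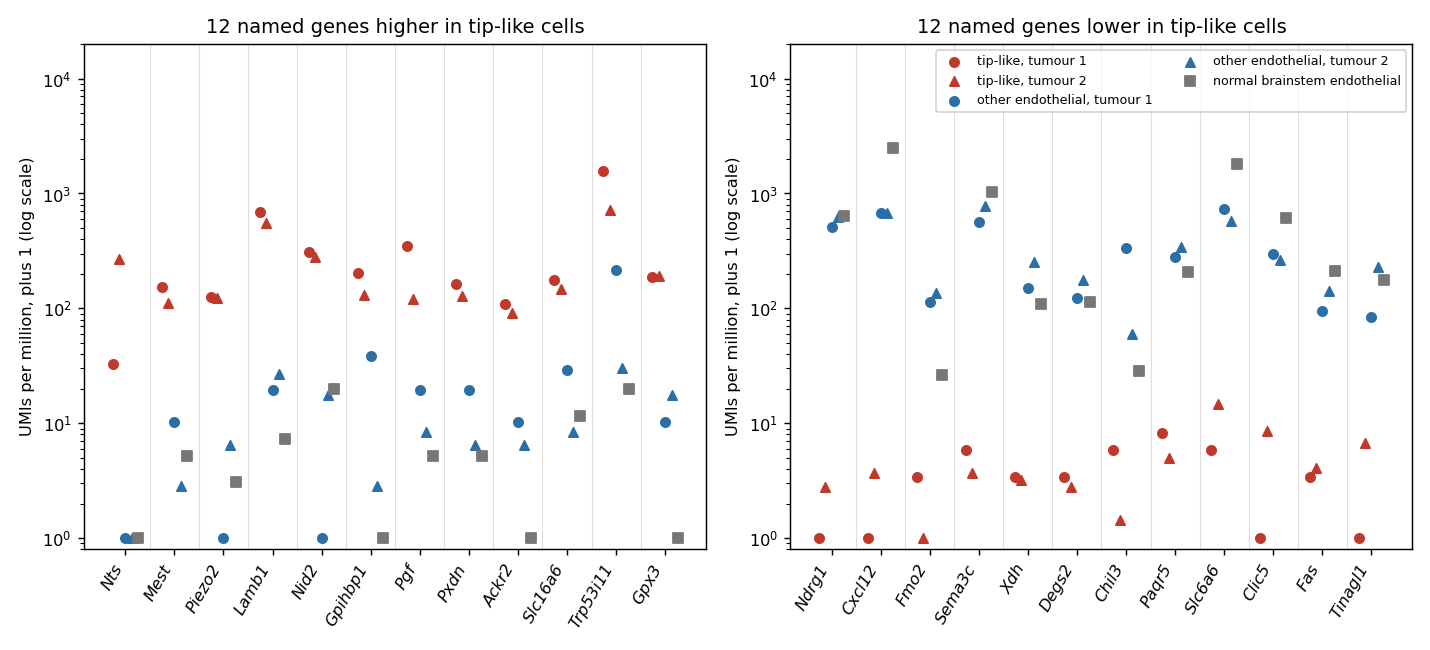
Levels of the 12 named genes with the largest rise (left) and the 12 with the largest fall (right), as CPM plus 1 on a log axis, for tip-like cells (red), other tumour endothelial cells (blue) and normal brainstem endothelial cells (grey), with circles for tumour 1, triangles for tumour 2 and squares for the normal library. For every gene both red points lie on the same side of both blue points, and Nts is at 0 in the blue and grey sums. The rule that named these genes required the same direction in both libraries, so that agreement was part of the choice.

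Hypoxia genes divided: of 15 tested, 5 rose and 2 fell (median 0.71). Adm, Ankrd37 (2.16) and Pfkfb3 (1.75) rose while Ndrg1 fell, and Slc2a1, which is also a barrier gene, fell. Of 15 glycolysis genes, 6 rose and 1 fell (median 0.72), with Pkm (1.13) and Gapdh (0.92) among those that rose. The glycolysis and hypoxia lists share members, Pfkfb3 and Slc2a1 among them, so their counts overlap. Of 9 IGF family genes, 5 rose and 1 fell (median 1.58): Igfbp7 stood at 5499 and 5574 CPM in the tip-like cells of tumours 1 and 2, against 1145 and 1493 CPM in the others, while the receptor gene Igf1r fell by 2.85. DESeq2 called 1 of these 9 higher and 1 lower, and with thinning 0 of 5 tested were higher and 1 lower (median 0.97). Of 16 guidance genes, 6 rose and 3 fell (median 0.48), with Sema3f (3.27) and Epha2 (2.95) among those that rose. Of 16 translation genes 3 rose (median 0.49), of 7 MHC class I and interferon genes 1 fell (Ifitm3, -0.84), of 6 permeability genes 2 rose (Emcn, 1.37, and Icam2, 0.80), and none of 8 cholesterol synthesis genes was called in either direction by edgeR or DESeq2. Of 16 pan-endothelial genes, 6 rose and 3 fell (median 0.37), with Ctla2a and Cd34 higher and Tek lower. For the arterial, venous, translation, interferon, permeability and cell cycle lists these are counts of 1 to 3 genes, to be read against 10.6% higher and 9.2% lower among all genes tested.

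No higher share of cycling cells was detected at matched depth. After each cell was thinned to 1000 UMIs, 0 of 15 tip-like cells of tumour 1, which allows a share of up to 20% as a floor of 3 cells and up to 21.8% by the exact interval, and 5 of 63 of tumour 2 (7.94%, exact 95% interval 2.63% to 17.6%) held a UMI of Mki67 or Top2a. The same held for 0 of 18 and 7 of 57 (12.3%, 5.08% to 23.7%) of the other endothelial cells and for 0 of 87 of the normal ones. Cells under 1000 UMIs were left out, 2 and 4 tip-like cells against 26 and 43 other endothelial cells of tumours 1 and 2, and 16 normal ones. Without thinning the shares were 41.2% and 40.3% in tip-like cells, against 2.27% and 17.0% in the others, at the depths given above. Of 8 tested cell cycle genes, none rose and 1 fell (Stmn1, -0.74).

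Markers of other cells were lower in the tip-like sums than in the other endothelial sums for most types. In cells of at least 5000 UMIs that held for microglia and macrophage, mural and astrocyte markers, with 4 of 6, 2 of 4 and 3 of 4 tested lower. Blood markers there had 1 of 2 tested higher and 0 lower (median 2.16), and the 1 tested neuron marker was higher (1.24). Graft markers there had 3 of 10 higher and 0 lower. Summed microglia and macrophage markers stood at 102 and 357 CPM in the tip-like cells of tumours 1 and 2, against 1732 and 1377 CPM in the others, with 5 of 7 tested lower. Summed mural markers stood at 157 and 175 CPM in tip-like cells, against 1518 and 1542 CPM in the others, with 2 of 4 tested lower and 2 of the list's 10 at 0 in both tip-like sums. Rgs5 held most of that, at 43.6 and 77.5 CPM in tip-like cells against 1192 and 1289 CPM in the others. Astrocyte markers stood at 136 and 302 CPM in tip-like cells, against 894 and 1362 CPM in the others, and blood markers at 208 and 611 CPM in tip-like cells, against 2067 and 2009 CPM in the others. Neuron markers stood at 50.8 and 126 CPM in tip-like cells, against 242 and 927 CPM in the others, and oligodendrocyte markers at 72.6 and 61.1 CPM in tip-like cells, against 149 and 123 CPM in the others. Choroid plexus and ependymal markers were all under 10 CPM in both tip-like sums. Glioma graft markers stood at 637 and 690 CPM in tip-like cells, against 857 and 708 CPM in the others, with 1 of 10 higher (Cdkn2a, 1.75). Lymphatic markers stood at 150 and 109 CPM in tip-like cells, against 46.6 and 79.1 CPM in the others, and each of them except Flt4 was under 10 CPM in the tip-like sums. Fibroblast markers stood higher, at 775 and 888 CPM in tip-like cells against 186 and 270 CPM in the others, and most of that was Apod, a lipocalin, at 709 and 781 CPM in tip-like cells against 149 and 118 CPM in the others. All gated cells of at least 5 Pdgfra UMIs were then left out. These were the 6 tip-like cells and also part of the other class of tumour 2, where 99 of 100 cells stayed. Without them, 1 of 7 tested graft markers was higher and 3 were lower, with a median log2 change of -1.35, against 0.06 with those cells. The 3 tested astrocyte markers then had a median of -2.83, against -1.18 with those cells, and 2 of them were lower in both cases, and of 15 hypoxia genes 5 were higher and 4 lower (median 0.60). Sprouting genes stood at 19 of 27 higher, matrix genes at 16 of 22 higher and barrier genes at 18 of 33 lower without them. Among all 6410 genes tested without them, 698 were called higher and 667 lower. The part of these other cells in the results was not otherwise tested.

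The levels were also compared in cells of at least 5000 UMIs alone, a limit chosen after the data were seen. It brings the depths of the classes closer without matching them. The deepest tip-like cells held 69314 and 183189 UMIs in tumours 1 and 2, against 28524 and 45833 for the deepest other cells. These cells also make up much of the main sums, so the calls of the subset are not independent of the main ones. Of the 1343 genes called, 1180 were called in the same direction in this subset and 2 in the opposite one, Fos and Meg3. List counts in those cells were 19 higher and 1 lower of 27 sprouting genes, 16 and 1 of 22 matrix genes, 0 and 22 of 33 barrier genes, and 0 and 8 of 16 Wnt genes. Hypoxia genes moved further, to 9 higher and 2 lower of 14, and glycolysis genes to 11 higher and 1 lower of 14. Among all 6322 genes tested in those cells, 849 were called higher and 683 lower. With stricter limits on mural and C1q UMIs, 328 genes were called higher and 283 lower, and with cells thinned to 2000 UMIs before selection 41 and 55 of 1174, of which 88 were among the calls above. With thinning the list counts were smaller: 6 of 17 tested sprouting genes, 2 of 14 matrix genes and 2 of 16 cytoskeleton and migration genes were higher, 4 of 24 barrier genes were lower, and none of 9 glycolysis genes was called (median -0.22). Of 6 hypoxia genes 1 was higher with thinning (median -0.01). With the stricter mural and C1q limits 2 of 15 hypoxia genes were higher and 1 lower, and 1 of 15 glycolysis genes was higher and 0 lower. DESeq2 called 2 of 15 hypoxia genes higher and 2 lower, and 2 of 15 glycolysis genes higher and 1 lower.

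The tip-like cells were then set against the endothelial cells of normal brainstem, which share the tip-like sums with the comparison above, so the results are not independent. The 3 sums leave 1 residual degree of freedom, from the tumour pair, and the fit takes the spread of the tumour pair for the unreplicated normal library too, so small p-values rest on a spread pooled over genes. Of 7954 genes tested, 1555 (19.5%) were called higher and 1074 (13.5%) lower (edgeR, median log2 change 0.02). With total UMIs as the scale the numbers were 1142 and 1666, so 40.7% of calls were higher, against 59.1% here, and the median moved to -0.30. DESeq2 called 545 and 271.

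The same groups moved. Of 27 sprouting genes, 18 rose and 1 fell (median 1.38); of 23 matrix genes, 18 rose and 1 fell (2.64); of 33 barrier genes, 23 fell and 0 rose (-1.65); and of 16 Wnt genes, 13 fell and 0 rose (-1.21). Gpx3, Gpihbp1, Ctsw and C1qtnf6 had no UMI in normal endothelial cells. Against a floor of 3 UMIs Gpx3 was at least 29.9-fold, Gpihbp1 at least 22.5-fold, the cysteine protease gene Ctsw at least 21.1-fold and C1qtnf6 at least 15.8-fold higher. Igfbp3 stood at 651 and 884 CPM in tip-like cells, against 12.6 CPM in normal endothelial cells, a log2 change of 6.24 (SE 0.47). It varied among the other tumour endothelial cells too, at 503 and 110 CPM.

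Interferon genes were lower in tip-like than in normal endothelial cells. Of 15 tested MHC class I and interferon genes, 9 fell and 0 rose (median -1.60). Ifit1, an antiviral gene that interferon induces, had 0 and 4 UMIs in the tip-like sums of tumours 1 and 2, against 118 in the normal sum, and fell by 6.96 (SE 0.51). Isg15 stood at 9.69 and 12.4 CPM in tip-like cells, against 192 CPM in normal endothelial cells, and Irf7 at 0 and 2.66 CPM in tip-like cells, against 82.2 CPM in normal ones. In the other tumour endothelial cells Isg15 stood at 18.6 and 53.3 CPM, from 2 and 29 UMIs, and did not pass the filter on low counts.

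All 16 translation genes rose against the normal library (median 1.95). So did 12 of 15 glycolysis genes and 10 of 15 hypoxia genes (1.87 and 1.87), lists that share members. Of the cell cycle genes 7 of 10 rose (2.56, but 0 of 10 with DESeq2). As summed levels, the other tumour endothelial cells also stood above the normal ones in each of these lists. Translation genes stood at 20728.5 and 19585.7 CPM in tip-like cells and 15792.2 and 16829.4 CPM in the others, against 6689.69 CPM in normal ones. In the same order, glycolysis genes stood at 4801 and 4614, 4451 and 4278, and 2821 CPM. Cell cycle genes stood at 586 and 798, 745 and 1068, and 451 CPM. The others were not tested against normal cells. Graft markers also moved with this contrast: 8 of 10 were higher in tip-like cells, with summed levels of 637 and 690 CPM in tip-like cells against 126 CPM in normal endothelial cells, and the part of graft RNA in the contrast was not tested. Without the 6 cells of at least 5 Pdgfra UMIs, 2 of 5 tested graft markers were higher and 1 lower, while the translation, matrix and barrier counts were 16 of 16 and 17 of 23 higher and 22 of 33 lower. Kept cells also differed in depth, at medians of 9012 and 11443 UMIs in the tumour libraries against 2429 in the normal one. Tumour and library cannot be told apart with 1 normal library.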

How the data were processed

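The deposited matrices hold raw UMI counts. Per the file headers they come from Cell Ranger 6.1.2; the build, mm10, is from the submitters' processing notes. Doublets were called per library with Scrublet (scanpy 1.11.5, expected rate 8%) but not removed. Total UMIs were 151906460, 157114723 and 15035292 in tumour 1, tumour 2 and normal. The members, gene lists, rule for named genes and tests were chosen with earlier results of these data known.

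Counts were summed per library and class and compared in R 4.3.3 by edgeR 4.0.16 (quasi-likelihood F-test after filterByExpr, with TMM factors and a Benjamini-Hochberg limit of 0.05). Log2 changes are fitted values, and their SE is the log2 change over the root of the test statistic. Genes of the selection limits, Mmp10 and Vwf were left untested. Named genes were, at 50 CPM or more, the 12 largest called changes each way against other tumour cells and 6 each way against normal cells, moving the same way in both libraries, plus up to 6 members per list with the largest change at 20 CPM or more; single genes named outside this rule were chosen after their values were seen, and 1 gene that the rule names is not reported here. The library is the replicate and enters as a block, because the tip-like and the other cells of a library come from the same mouse. The test was tried on simulated counts. DESeq2 1.42.0 was an alternative. Intervals are exact Clopper-Pearson at 95%; they and floors of 3 UMIs cover counting error only. Positions are from GENCODE mouse release 21 (GRCm38), where 459 of 459 identifiers matched; promoters are from RefSeq.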

Additional observations from a re-analysis of the deposited data

How the results depend on the processing

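Genes higher and lower in tip-like than in other tumour endothelial cells numbered 720 and 623. The numbers fell to 216 and 228 with DESeq2, to 41 and 55 with cells thinned to 2000 UMIs before selection (1174 genes tested) and to 328 and 283 with mural and C1q limits of 2 and 10, while without a filter on low counts 1108 were higher. Without the replicate block, which ties the cells of a library together, 577 and 497 were called, 1074 in all and each in the same direction as with it. Against normal endothelial cells the numbers, 1555 and 1074, became 545 and 271 with DESeq2, 205 and 256 with thinning, 728 and 471 with the stricter mural and C1q limits, and 1666 lower with total UMIs as the scale. Leaving out a tumour library leaves no residual degree of freedom for the first comparison, so only single-library log2 values were computed; no count without a library was fitted for either comparison.

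The share of tip-like cells moved in tumour 1 to 41.4% with the stricter cell filter, 53.8% with thinning, 41.0% with an endothelial limit of 20 and 73.3% at 5000 UMIs or more. In tumour 2 it moved to 54.7% with that endothelial limit, 49.1% with the stricter mural and C1q limits and 65.3% at 5000 UMIs. In normal brainstem it was 0 under the stricter cell filter, thinning, the stricter mural and C1q limits and 5000 UMIs, as the lone cell did not pass. Cycling shares without thinning were 41.2% and 40.3%.

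Among 177 named and tested genes, 126 of them called against other tumour cells, these turned direction. In cells of at least 5000 UMIs Fos became 3.42, Meg3 1.24 and Hba-a1 5.56; with the endothelial limit of 20 Fos became 0.71 and S100a9 0.19; with thinning Rpl32 became -0.33. Against normal cells Tyrobp became -1.35 in the count split, Aldoc -1.47 without cells of 5 or more Pdgfra UMIs and Hba-a2 -6.49 with thinning. The count split, too, required at least 2 UMIs of the selecting genes in place of 3. With each tumour library left out in turn, the log2 value against normal cells ranged from -0.14 to 1.38 for Aplnr, -1.10 to 2.98 for Col1a1, -0.75 to 3.22 for Hba-a1 and -0.36 to 2.71 for Hba-a2, each lower without tumour 2, and from -0.19 to 2.44 for Icam1, lower without tumour 1. Values from a single tumour library moved by more than the spread for 95 of the 177 genes without tumour 2 and for 20 without tumour 1, and against normal cells for 90 and 67 of 176. These single-library values are ratios of CPM plus 1 on total UMIs, while the fitted changes use trimmed-mean scaling. Between these scales the median of all genes moved from 7.9e-05 to -0.19 against other tumour cells. Against normal cells it moved from 0.02 to -0.30. The sign of values near 0 and the counts of moved genes can therefore depend on the scale, by an amount that was not tested. The cause was not tested. Depth limits the other class, and with 107395 UMIs in tumour 1 1 UMI is worth 9.31 CPM there.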
